A study of Homo sapiens with 6 samples.

Results

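Respiratory complex I was examined through every protein-coding gene whose symbol starts with NDUF, which gave 48 of the 60664 genes in the count table. They comprised 37 subunits encoded in the nucleus (7 core and 30 accessory), 8 NDUFAF assembly factors, NDUFA4 with its paralog NDUFA4L2, and the read-through locus NDUFC2-KCTD14. The libraries came from HCT8, a human colorectal cancer cell line grown in DMEM with fetal bovine serum, and mRNA was sequenced in bulk. The 3 GPT1 libraries came from cells that received a GPT1 overexpression plasmid, and the 3 control libraries came from cells that received a control plasmid and are labelled WT for genotype. GPT1 is the cytosolic alanine transaminase encoded by GPT, and the study asked which signalling pathway it regulates in colorectal cancer. The labels give no promoter, clone, time after transfection or separate culture, so the p-values below measure only the spread between these libraries, which may be technical.

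Complex I takes electrons from NADH, passes them along a chain of iron-sulfur clusters to ubiquinone, and uses the energy to pump protons out of the mitochondrial matrix. Its matrix arm holds the NADH and quinone sites, and its membrane arm holds the proton pumps, which are built around the subunits encoded in mitochondrial DNA. Accessory subunits surround this conserved core, and assembly factors join the modules but are absent from the finished enzyme. NDUFA4 was first described as a complex I subunit and is now placed in complex IV, so it and NDUFA4L2 were kept apart from the subunits.

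The promoters of the NDUF genes are shown first, because this gene family is known for sites of NRF1, ETS-family factors and YY1 near its transcription starts. Each RefSeq window on GRCh38.p14 ran from 250 bases before to 50 bases after the gene's start, and 40 of the 48 genes had an entry. RefSeq starts can differ from the GENCODE 29 gene ends given further on. Those without an entry included NDUFA4, NDUFA4L2, NDUFAF6, NDUFB5, NDUFB9, NDUFC2 and NDUFS5. The printed windows are 5 subunit genes whose RNA passed the test described below and 1 assembly factor, NDUFAF5, which did not; they were chosen after their motif matches were seen. They lie at chrX:119871582-119871881 (NDUFA1, plus strand), chr9:122159730-122160029 (NDUFA8, minus strand), chr3:120596086-120596385 (NDUFB4, plus strand), chr11:47578824-47579123 (NDUFS3, plus strand), chr19:1383657-1383956 (NDUFS7, plus strand) and chr20:13784778-13785077 (NDUFAF5, plus strand). Capitals mark a match to the NRF1, ETS or YY1 letters on either strand; matches to the CCAAT box, also searched for, are not marked.
NDUFA1: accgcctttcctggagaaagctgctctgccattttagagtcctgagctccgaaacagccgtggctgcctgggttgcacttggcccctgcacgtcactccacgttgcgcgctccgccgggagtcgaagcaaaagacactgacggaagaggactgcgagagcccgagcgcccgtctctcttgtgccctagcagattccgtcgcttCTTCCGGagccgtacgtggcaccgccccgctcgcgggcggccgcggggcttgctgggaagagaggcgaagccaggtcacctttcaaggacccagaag
NDUFA8: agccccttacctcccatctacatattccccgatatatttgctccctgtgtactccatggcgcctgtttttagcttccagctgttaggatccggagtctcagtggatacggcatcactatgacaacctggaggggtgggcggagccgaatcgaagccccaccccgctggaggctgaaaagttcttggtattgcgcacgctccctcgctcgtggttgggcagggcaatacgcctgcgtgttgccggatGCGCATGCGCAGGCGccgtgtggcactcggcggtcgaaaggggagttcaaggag
NDUFB4: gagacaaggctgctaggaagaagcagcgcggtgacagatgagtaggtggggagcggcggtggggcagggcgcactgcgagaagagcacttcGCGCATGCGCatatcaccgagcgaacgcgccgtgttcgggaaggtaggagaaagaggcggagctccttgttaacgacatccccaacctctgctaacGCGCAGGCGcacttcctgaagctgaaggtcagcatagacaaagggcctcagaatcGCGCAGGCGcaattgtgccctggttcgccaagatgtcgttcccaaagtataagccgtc
NDUFS3: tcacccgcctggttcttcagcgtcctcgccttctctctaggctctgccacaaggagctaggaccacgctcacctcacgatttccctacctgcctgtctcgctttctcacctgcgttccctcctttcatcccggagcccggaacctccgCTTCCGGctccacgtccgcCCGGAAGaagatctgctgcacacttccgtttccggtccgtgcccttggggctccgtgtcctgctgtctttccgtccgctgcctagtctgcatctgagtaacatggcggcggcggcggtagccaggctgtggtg
NDUFS7: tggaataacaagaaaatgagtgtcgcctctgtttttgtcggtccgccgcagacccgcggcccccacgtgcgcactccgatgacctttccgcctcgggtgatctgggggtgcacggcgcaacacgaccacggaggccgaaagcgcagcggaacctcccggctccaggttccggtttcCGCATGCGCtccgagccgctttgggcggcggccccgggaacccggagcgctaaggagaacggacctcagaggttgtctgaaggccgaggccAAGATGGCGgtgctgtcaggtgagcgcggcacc
NDUFAF5: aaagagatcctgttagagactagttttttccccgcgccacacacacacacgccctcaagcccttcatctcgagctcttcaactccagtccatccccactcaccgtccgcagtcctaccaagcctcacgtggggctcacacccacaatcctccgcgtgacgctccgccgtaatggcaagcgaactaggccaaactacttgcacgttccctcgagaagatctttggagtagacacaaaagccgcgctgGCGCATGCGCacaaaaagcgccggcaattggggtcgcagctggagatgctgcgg
The capitals are the ETS letters CCGGAAG or their reverse complement in NDUFA1 and NDUFS3, the NRF1 letters GCGCANGCG or their reverse complement in NDUFA8, NDUFB4, NDUFS7 and NDUFAF5, and the YY1 letters AAGATGGCG in NDUFS7, downstream of its NRF1 match. Overlapping matches run together: those of NDUFA8 span the start site, and NDUFB4 has 3 separate stretches that begin 159, 63 and 8 bases upstream of the start.

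An exact NRF1 match was present in 10 of the 40 NDUF promoters (25.0%), against 8.0% of all 27305 promoters of the same length and 14.1% of the 11233 promoters of tested protein-coding genes. YY1 letters were found in 5 of the 40 (12.5%), against 1.8% of all promoters and 3.7% of those of tested genes. For the ETS letters the shares were 6 of 40 (15.0%), 10.7% and 18.1%, and for the CCAAT box, searched as CCAAT, they were 11 of 40 (27.5%), 35.7% and 36.5%. Among the 15 promoters of NDUF genes that passed the test, 5 held the NRF1 letters, 2 the ETS letters and 1 the YY1 letters, and among the other 25 these counts were 5, 4 and 4. The letters chosen matter here: longer forms were searched first, and with a further C at its end the NRF1 form was found in 7 of the 40, 2 of the 15 and 5 of the 25. The YY1 form with a further G was found in 4 of the 40. These are letter matches in a fixed window and say nothing of binding.

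Library totals lay between 30370654 and 31513656 counts in the GPT1 libraries and between 21255655 and 32487217 in the control libraries, control replicate 3 being the smallest. GPT was at 3397, 3176 and 3468 CPM (the gene's share of the reads in its library, with the library size scaled by the TMM method) in the GPT1 libraries and at 0.275, 0.445 and 0.139 CPM in the control libraries; the counts do not separate plasmid transcripts from those of the cell's own gene. The colorectal epithelial markers were 561 to 632 CPM in sum in the GPT1 libraries and 882 to 1036 CPM in the control libraries. Most of this sum was KRT8 (means 352 CPM with GPT1 and 529 CPM in control) and KRT18 (171 and 261 CPM). EPCAM was at 9.28 and 24.9 CPM and VIL1 at 3.17 and 12.3 CPM, in the same order. By the test described below 7 of their 8 tested members were lower, against 14.6% of all tested genes. KRT20 and CDX1 were at or near 0 in both groups, and CDX2 was detected. A neural and kidney-line list was at 193 to 198 CPM in the GPT1 libraries and 411 to 503 CPM in the control libraries, with 3 of 4 members lower. NEFM (means 104 CPM with GPT1 and 293 CPM in control) and NEFL (83.0 and 152 CPM) made up most of it. Both exceeded EPCAM in each group. The fibroblast list, nearly all VIM, was at 1055 to 1064 CPM in the GPT1 libraries and 1028 to 1054 CPM in the control libraries, with LUM higher of 3 tested. The leukocyte marker CD3E and the erythroid marker HBB were at 0 in every library and PTPRC was at or near 0. The part of these marker differences in the results below was not tested.

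Among the tested NDUF genes 21 rose with GPT1 overexpression, by modest amounts, and none fell. The summed share of all 48 in the reads was 0.409%, 0.366% and 0.390% with GPT1 overexpression, against 0.317%, 0.333% and 0.298% in the control libraries. The groups did not overlap. In this bulk measurement more RNA per cell and a larger share of cells with the RNA cannot be told apart. Of the 46 NDUF genes that passed the filter on low counts, 21 were higher and 0 were lower at an adjusted p under 0.05 (edgeR quasi-likelihood F test, Benjamini-Hochberg adjustment over all 17638 tested genes). Among all tested genes 10.5% were higher, 14.6% were lower and 25.1% passed in either direction. At an unadjusted p under 0.05 the count of lower NDUF genes was also 0, and DESeq2 and limma voom gave 22 and 21 higher and 0 lower.

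The median log2 fold change was 0.27 over the 46 NDUF genes and -0.02 over all tested genes, and 40 of the 46 were above 0. In 28 of the 46 every GPT1 library lay above every control library, as in 21.2% of all tested genes; in 1, NDUFS1, every GPT1 library lay below, as in 22.2%. The count of 21 depended on 3 libraries: it was 7 without GPT1 replicate 1, 8 without GPT1 replicate 3 and 12 without control replicate 1, where 3.58%, 3.39% and 5.48% of all tested genes were higher. It was 20 to 22 when any of the other 3 libraries was left out. The 7 genes NDUFA1, NDUFA2, NDUFA4, NDUFB2, NDUFB3, NDUFB6 and NDUFB9 passed in each of the 6 leave-one-out fits and in every other fit run. The share of all tested genes that passed in every fit is not given here, so this count has no background to be read against.

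**Figure D1:**
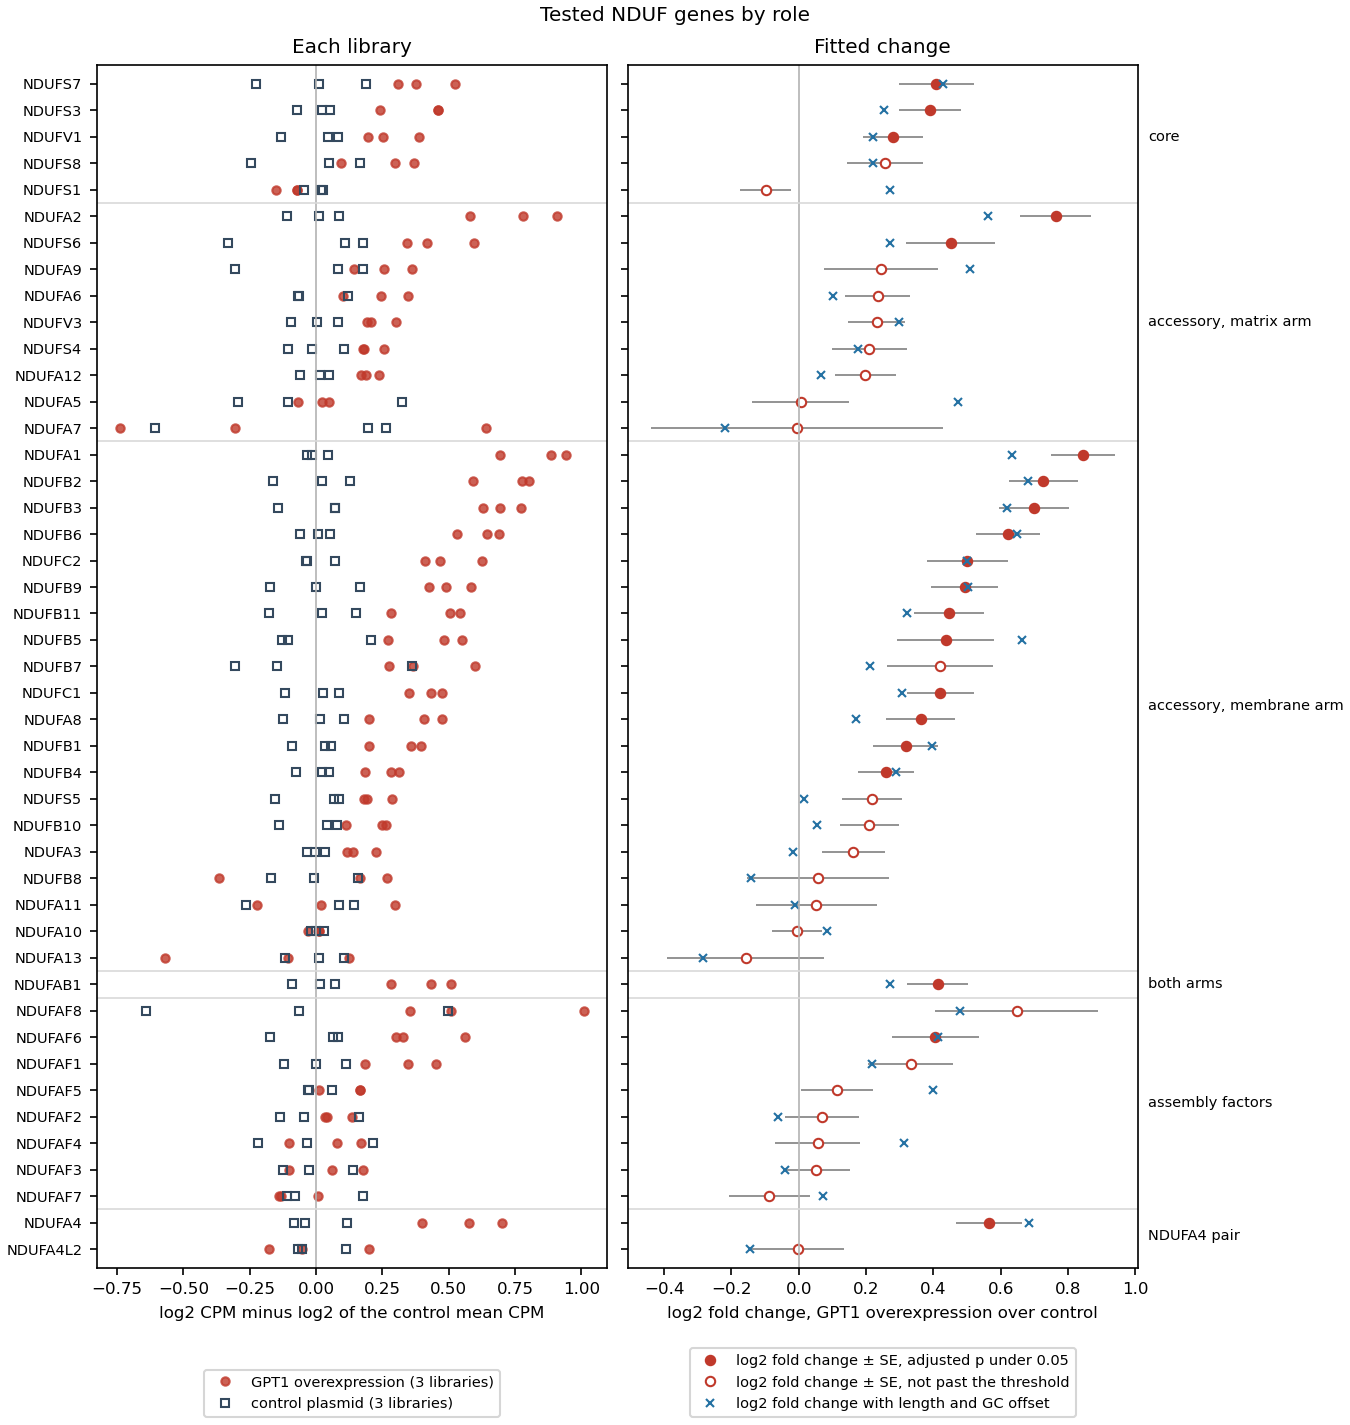
Left, log2 CPM of the tested NDUF genes, 1 left out, in the 3 GPT1 libraries (filled circles) and the 3 control libraries (open squares), relative to the control mean; right, fitted log2 fold change of GPT1 overexpression over control with its standard error, filled where the adjusted p is under 0.05, and crosses with the correction for transcript length and GC content. Filled circles run to 0.84 for NDUFA1, most genes lie to the right of 0, and no gene is called lower.

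The core subunits carry the flavin, the iron-sulfur clusters and the quinone site, and 4 of the 6 tested were higher, with a median log2 fold change of 0.29. NDUFS7, which holds the terminal iron-sulfur cluster beside the quinone site, is on chromosome 19 (1383527 to 1395589, plus strand; GENCODE 29 on GRCh38, as for all gene positions here). It had 124, 107 and 112 CPM in the GPT1 libraries, against 87.0, 98.3 and 73.7 CPM in the control libraries. The groups did not overlap and control replicate 3 was the lowest of all (log2 fold change 0.41 ± 0.11 SE, edgeR adjusted p = 0.0246). NDUFS3, part of the quinone module, had 104, 89.4 and 104 CPM in the GPT1 libraries, against 76.8, 78.4 and 72.0 CPM in the control libraries. Its groups also stood apart, by 0.39 ± 0.09 (edgeR adjusted p = 0.0148). NDUFV1, which binds the flavin and NADH, had 331, 290 and 301 CPM in the GPT1 libraries, against 261, 268 and 231 CPM in the control libraries. It was the most abundant NDUF gene in CPM, its groups were separate, and it differed by 0.28 ± 0.09 (edgeR adjusted p = 0.0402). The 4 core calls did not survive the loss of GPT1 replicate 1 or of GPT1 replicate 3, where 0 of the 6 core subunits passed. In each of these fits 4 had an unadjusted p under 0.05. Of the 6, 1 passed without control replicate 1 and 3 passed without control replicate 3.

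The other core subunits did not pass. NDUFS8, an iron-sulfur protein of the quinone module, had 191, 158 and 182 CPM in the GPT1 libraries, against 153, 166 and 125 CPM in the control libraries. GPT1 replicate 2 lay inside the control range (log2 fold change 0.26 ± 0.11, edgeR adjusted p = 0.118). NDUFS1, the largest subunit and the carrier of several iron-sulfur clusters, had 146, 154 and 154 CPM in the GPT1 libraries, against 164, 157 and 165 CPM in the control libraries. The GPT1 values were all lower, by a margin that did not pass (-0.10 ± 0.08, edgeR adjusted p = 0.352). NDUFS1 has the longest transcript of all NDUF genes (11819 nt), and its estimate turned to 0.27 with the correction for length and GC content described below (edgeR adjusted p = 0.0238). NDUFV2, an iron-sulfur protein next to NDUFV1, had 1, 10 and 2 counts in the GPT1 libraries and 6, 2 and 5 counts in the control libraries and was not tested.

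Accessory subunits of the membrane arm held most of the genes that passed: 12 of 20 were higher, 0 were lower, and their median was 0.39. Without GPT1 replicate 1 or 3 the count was 5 or 6, and without control replicate 1 it was 8. NDUFA1, a small X-linked subunit near the joint of both arms (chromosome X, 119871487 to 119876662, plus strand), showed the largest change of the family. It had 94.2, 79.2 and 90.5 CPM in the GPT1 libraries, against 50.6, 48.5 and 47.9 CPM in the control libraries. Its groups were far apart relative to their spread (88.0 ± 7.78 CPM with GPT1 and 49.0 ± 1.38 CPM in control, SD, n = 3 each), and the log2 fold change was 0.84 ± 0.09 (edgeR adjusted p = 0.000321). The next 3 belong to the distal part of the membrane arm. NDUFB2 (chromosome 7, 140690777 to 140722790, plus strand) had 106, 91.6 and 104 CPM in the GPT1 libraries, against 61.7, 66.4 and 54.3 CPM in the control libraries. The lowest GPT1 value exceeded the highest control value (0.73 ± 0.10, edgeR adjusted p = 0.00124). NDUFB3 (chromosome 2, 201071433 to 201085750, plus strand) had 50.6, 45.8 and 47.9 CPM in the GPT1 libraries, against 26.8, 31.1 and 31.1 CPM in the control libraries. Again the groups stood apart, by 0.70 ± 0.10 (edgeR adjusted p = 0.00167). NDUFB6 (chromosome 9, 32552999 to 32573184, minus strand) had 53.9, 49.9 and 55.6 CPM in the GPT1 libraries, against 35.8, 34.7 and 33.1 CPM in the control libraries. Values were tight within each group, and the difference was 0.62 ± 0.10 (edgeR adjusted p = 0.00202).

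NDUFB9, a membrane-arm subunit of the LYR family that docks an acyl carrier protein (chromosome 8, 124539101 to 124580648, plus strand), had 171, 153 and 160 CPM in the GPT1 libraries, against 114, 128 and 101 CPM in the control libraries. All GPT1 values were higher (0.49 ± 0.10, edgeR adjusted p = 0.00769). NDUFC2 had 14.5, 13.0 and 12.5 CPM in the GPT1 libraries, against 9.17, 9.88 and 9.16 CPM in the control libraries. It was among the less abundant members, with groups that did not overlap and a log2 fold change of 0.50 ± 0.12 (edgeR adjusted p = 0.0163). The acyl carrier protein itself, NDUFAB1, sits in both arms and also serves mitochondrial fatty acid synthesis; it had 115, 98.3 and 109 CPM in the GPT1 libraries, against 81.7, 84.9 and 75.8 CPM in the control libraries. Here too the groups were separate (0.41 ± 0.09, edgeR adjusted p = 0.0115). The remaining membrane-arm subunits that passed, NDUFB11, NDUFB5, NDUFC1, NDUFA8, NDUFB1 and NDUFB4, had log2 fold changes between 0.26 for NDUFB4 and 0.45 for NDUFB11. The 8 that did not pass ranged from -0.16 for NDUFA13 to 0.42 for NDUFB7, whose control libraries spread from 57.7 to 91.7 CPM. NDUFA10, a subunit with a nucleoside-kinase fold, had 148, 144 and 148 CPM in the GPT1 libraries, against 150, 147 and 145 CPM in the control libraries, an estimate of -0.01 ± 0.07.

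Accessory subunits of the matrix arm were higher in 2 of 9 cases, NDUFA2 and NDUFS6, against 10.5% of all tested genes. Their median log2 fold change was 0.23 over the 9. NDUFA2, a thioredoxin-fold subunit (chromosome 5, 140638740 to 140647785, minus strand), had 97.5, 77.5 and 89.1 CPM in the GPT1 libraries, against 52.3, 55.1 and 48.1 CPM in the control libraries. The groups were well separated (0.76 ± 0.11, edgeR adjusted p = 0.00113). NDUFS6, a zinc-binding subunit, had 85.1, 71.3 and 75.2 CPM in the GPT1 libraries, against 60.7, 63.7 and 44.7 CPM in the control libraries. Control replicate 3 was the lowest library for this gene as well (0.45 ± 0.13, edgeR adjusted p = 0.0309). NDUFS6 did not pass without GPT1 replicate 1, GPT1 replicate 3 or control replicate 1 (edgeR adjusted p between 0.0527 and 0.124). The other 7, NDUFA12, NDUFA5, NDUFA6, NDUFA7, NDUFA9, NDUFS4 and NDUFV3, had estimates from -0.01 for NDUFA7 to 0.25 for NDUFA9. In 3 of them, NDUFA12, NDUFS4 and NDUFV3, every GPT1 library was above every control library although the test was not passed. Over the 9 matrix-arm genes this order was seen in 5, and over all tested genes in 21.2%. NDUFA5 had 40.4, 43.9 and 43.1 CPM in the GPT1 libraries, against 34.6, 39.4 and 53.1 CPM in the control libraries, so that its control libraries enclosed the GPT1 libraries.

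Fewer of the assembly factors passed: 1 of the 8, NDUFAF6, was higher, 0 were lower, a share of higher genes near the 10.5% of all tested genes, and the median log2 fold change was 0.09, against 0.29 over the 36 tested subunits, of which 19 were higher. Whether the roles differ was not tested, since genes are not replicates. NDUFAF6, which acts early in assembly, had 16.7, 19.6 and 16.4 CPM in the GPT1 libraries, against 11.8, 13.9 and 14.1 CPM in the control libraries. Its groups did not overlap (0.41 ± 0.13, edgeR adjusted p = 0.0423), but its adjusted p rose to between 0.0523 and 0.135 in 5 of the 6 leave-one-out fits. NDUFAF8, a partner of NDUFAF5, had 167, 106 and 118 CPM in the GPT1 libraries, against 79.3, 117 and 53.2 CPM in the control libraries. It had the largest estimate of the assembly factors and the widest spread, and the groups overlapped (0.65 ± 0.24, edgeR adjusted p = 0.0706). NDUFAF1, part of the complex that assembles the membrane arm, had 15.9, 14.2 and 17.1 CPM in the GPT1 libraries, against 12.5, 11.5 and 13.5 CPM in the control libraries. The groups stood apart without passing (0.33 ± 0.13, edgeR adjusted p = 0.0726).

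The other 5 assembly factors had overlapping groups. NDUFAF5, which hydroxylates an arginine of NDUFS7, had 26.0, 26.0 and 23.4 CPM in the GPT1 libraries, against 22.8, 24.2 and 22.7 CPM in the control libraries. NDUFAF2, a chaperone of late assembly, had 35.8, 33.4 and 33.5 CPM in the GPT1 libraries, against 31.6, 36.5 and 29.7 CPM in the control libraries. Their log2 fold changes were 0.11 ± 0.11 and 0.07 ± 0.11. NDUFAF3, which works with NDUFAF4 in the quinone module, had 234, 193 and 216 CPM in the GPT1 libraries, against 203, 228 and 190 CPM in the control libraries. NDUFAF4 had 37.3, 45.0 and 42.2 CPM in the GPT1 libraries, against 34.4, 39.1 and 46.4 CPM in the control libraries. Both were near 0 in log2 fold change, at 0.05 ± 0.10 and 0.06 ± 0.13. NDUFAF7, a mitochondrial methyltransferase, had 18.9, 20.8 and 18.8 CPM in the GPT1 libraries, against 19.6, 19.2 and 23.4 CPM in the control libraries, an estimate of -0.09 ± 0.12. NDUFAF3 was the most abundant assembly factor in CPM, and NDUFAF1, NDUFAF6 and NDUFAF7 were the least abundant.

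**Figure D2:**
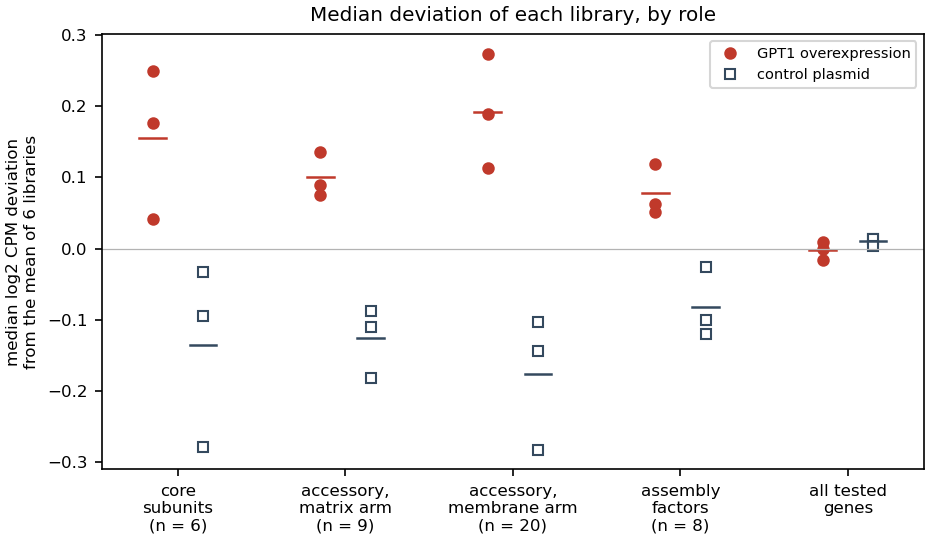
Median log2 CPM deviation of each library from the mean of all 6 libraries, for the genes of each role (n is the number of tested genes); filled circles are the 3 GPT1 libraries, open squares the 3 control libraries, and bars their means. Membrane-arm accessory subunits stood at 0.27, 0.11 and 0.19 in the GPT1 libraries and at -0.14, -0.10 and -0.28 in the control libraries, and assembly factors at 0.12, 0.06 and 0.05 in the GPT1 libraries and at -0.12, -0.03 and -0.10 in the control libraries.

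Within the subunits all 3 GPT1 libraries lay above all 3 control libraries in the median of each role. GPT1 replicate 2 was the lowest of the GPT1 libraries for the subunits as a whole (0.24, 0.08 and 0.17 in the GPT1 libraries, against -0.12, -0.09 and -0.27 in the control libraries), and control replicate 3 was the lowest control library. Mitochondrial transcripts of all kinds took 1.76%, 2.31% and 1.08% of counts in the GPT1 libraries, against 1.76%, 2.49% and 2.37% in the control libraries, so that GPT1 replicate 3 was the lowest and the groups overlapped.

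NDUFA4, now placed in complex IV, had 159, 129 and 146 CPM in the GPT1 libraries, against 95.1, 106 and 92.2 CPM in the control libraries. Its groups did not overlap, and it passed in every fit run (0.57 ± 0.10, edgeR adjusted p = 0.00403). NDUFA4L2, a paralog known as a hypoxia-induced gene, had 12.5, 9.64 and 10.5 CPM in the GPT1 libraries, against 10.5, 11.8 and 10.4 CPM in the control libraries, with overlapping groups and an adjusted p of 0.99 from edgeR. The read-through locus NDUFC2-KCTD14 had 0 counts in each of the 6 libraries.

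Subunit transcripts were short. The longest annotated transcript had a median of 1350 nt in the tested subunits, 2206 nt in the assembly factors and 3204 nt in all tested genes with an annotation, and the median GC content was 48.5%, 45.5% and 49.0%. Length and GC content tracked the fold change across all genes in these libraries: over 17436 genes Spearman's correlation of the log2 fold change was -0.33 with length and 0.31 with GC content. Over the 46 NDUF genes it was -0.20 and -0.03. These points share the same 6 libraries and are descriptions. The trends differed from library to library: the GC correlation of each library's deviation over all genes was 0.47, -0.12 and 0.27 in the GPT1 libraries and -0.03, 0.08 and -0.52 in the control libraries.

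**Figure D3:**
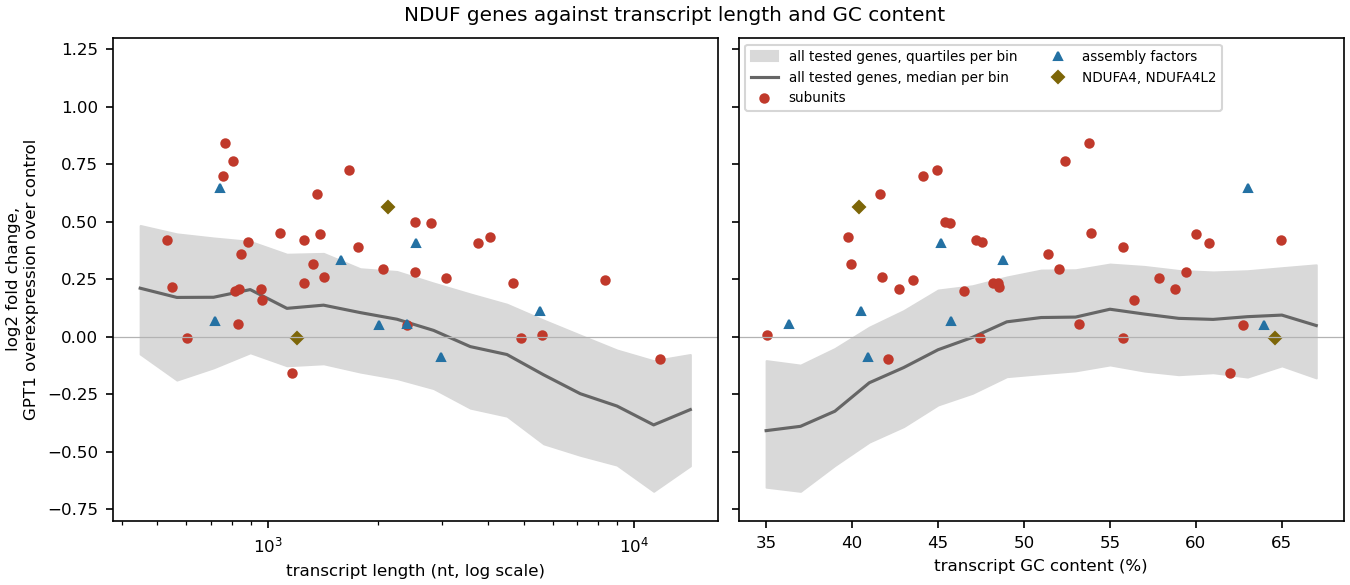
Log2 fold change of GPT1 overexpression over control for each tested NDUF gene against the length of its longest transcript in nucleotides (left, log scale) and its GC content in percent (right); circles are subunits, triangles assembly factors, diamonds NDUFA4 and NDUFA4L2, and the grey band and line are the quartiles and median of all tested genes. Most subunits lie above the grey line at their length and GC content.

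At similar transcript length the NDUF median exceeded that of all tested genes in each range. Of the 15 under 1000 nt, 5 were higher with a median of 0.22, against 13.5% of all genes of that length with a median of 0.19. From 1000 to under 2000 nt 8 of 12 NDUF genes were higher with a median of 0.36, against 14.9% and 0.12. From 2000 to under 4000 nt 7 of 12 were higher with a median of 0.29, against 12.2% and 0.02. At 4000 nt or more 1 of 7, NDUFB5, was higher with a median of 0.11, against 6.43% and -0.18. The gap was smallest in the shortest range, where all genes had a raised median. Among the subunits, the 18 shorter ones had a median of 0.28 and the 18 longer ones 0.29, and the 18 with lower and the 18 with higher GC content both had 0.29.

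A smooth trend of length and GC content was then fitted over all genes in each library and removed in the edgeR model. With this correction 28 of the 46 NDUF genes were higher and 0 lower, but 19.8% of all tested genes were also higher, 14.8% lower and 34.6% called in either direction. The share of all calls that were higher moved to 57.2%, against 41.9% without the correction. The NDUF median stayed at 0.27, against 0.03 over all tested genes. Of the 21 genes that passed without the correction 20 also passed with it, NDUFA8 being the exception, and 8 others passed with it: NDUFA5, NDUFA9, NDUFAF4, NDUFAF5, NDUFAF8, NDUFS1, NDUFS8 and NDUFV3.

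The contrast between assembly factors and subunits did not hold under this correction. The assembly factor median became 0.27 with 4 of 8 higher, and the subunit median was 0.27 with 23 of 36 higher, so that the difference of medians, assembly factors minus subunits, was -0.01 in place of -0.20. The largest shift among them was that of NDUFAF5, to 0.40 with the correction (edgeR adjusted p = 0.0163), against 0.11 without it. The correction also reordered the subunits: the 18 shorter ones fell to a median of 0.17 and the 18 longer ones had 0.31, while those of lower and higher GC content had 0.35 and 0.20. Membrane-arm accessory subunits had a median of 0.30 with 11 of 20 higher, and matrix-arm ones 0.27 with 5 of 9 higher. NDUFA1 and NDUFA2 remained high, at 0.63 and 0.56. Whether length and GC trends come from the libraries or from the cells was not tested.

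Several NDUF genes that a complete enzyme needs were almost uncounted. The 6 genes NDUFA13, NDUFA7, NDUFA9, NDUFB8, NDUFC2-KCTD14 (the read-through locus, not a subunit) and NDUFV2 were under 5 CPM in every library. Each shares 5% or more of its annotated exon bases with another gene on the same strand, as do 5 of the other 42 NDUF genes. Of these 42, NDUFA11 shares 9.7% and was also low. It had 5.25, 4.33 and 3.66 CPM in the GPT1 libraries and 4.71, 3.56 and 4.53 CPM in the control libraries. Per kilobase of the principal transcript (the longest where none is annotated as principal), NDUFV2 stood at 0.152 CPM in the GPT1 libraries and 0.171 CPM in the control libraries, whereas NDUFB10 stood at 286 CPM per kilobase in the GPT1 libraries and 248 in the control libraries and NDUFS5 at 270.0 in the GPT1 libraries and 232 in the control libraries. The lowest NDUF gene without such an overlap, NDUFAF5, had 4.55 CPM per kilobase in the GPT1 libraries and 4.20 in the control libraries. Other genes with such an overlap were well above NDUFV2: NDUFS3 (19.6%) had 104 in the GPT1 libraries and 79.1 in the control libraries. NDUFV1 (8.4%) had 122 and 100, NDUFC1 (18.5%) 37.8 and 28.2, and NDUFC2 (16.3%) 5.29 and 3.73, in the same order. Some partner genes were themselves near 0: NDUFV2 shares 28.4% of its exon bases with AP005263.1 and NDUFB8 33.8% with AL133352.1, both at 0 counts in all libraries. NDUFA7 shares 32.3% with AC010323.1, which had 2, 4 and 0 counts in the GPT1 libraries and 1, 0 and 0 in the control libraries. Others were counted: NDUFA13 shares 4.8% with YJEFN3, which had 258, 235 and 175 counts in the GPT1 libraries and 198, 204 and 123 in the control libraries, and 16.1% with AC011448.1, which had 32, 31 and 33 in the GPT1 libraries and 10, 17 and 8 in the control libraries. The read-through locus lies wholly over NDUFC2, with 198 to 449 counts per library, and KCTD14, with 10 to 46. No source used here says how reads shared by 2 genes were counted, and the part of that step in these low values was not tested, so a low count for these genes cannot be read as a low RNA level. Without them 21 of 42 NDUF genes were higher and the median was 0.31.

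**Figure D4:**
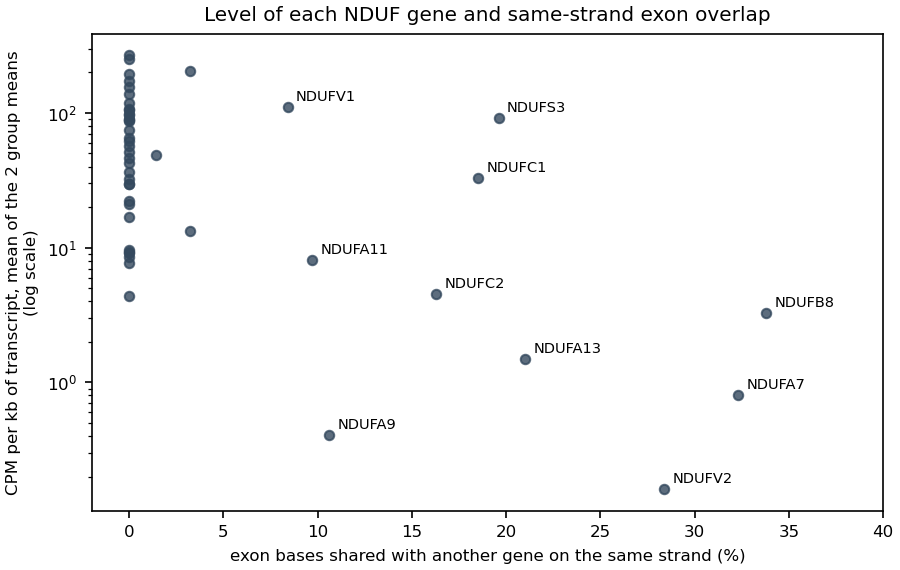
Level of each NDUF gene, in CPM per kilobase of its principal transcript, or the longest where none is annotated as principal, on a log scale (mean of the GPT1 mean and the control mean), against the percent of its exon bases shared with another gene on the same strand; the read-through locus, at 0 counts, is not drawn. Genes at 0% overlap lie at about 4 CPM per kilobase or more, and NDUFV2, NDUFA9, NDUFA7 and NDUFA13 lie lowest.

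Some of the genes that rose also lie across a gene on the opposite strand, and no source used here says whether strand was used in counting. NDUFA1 shares 44.5% of its exon bases with RNF113A, which had 1230, 1143 and 1172 counts in the GPT1 libraries and 1152, 1151 and 643 in the control libraries. NDUFB11 shares 44.9% with RBM10, NDUFB2 27.9% with BRAF, NDUFB3 19.8% with FAM126B and NDUFS7 35.7% with AC005329.1. BRAF had 559, 837 and 752 counts in the GPT1 libraries and 1040, 969 and 855 in the control libraries. FAM126B had 288, 461 and 303, against 512, 495 and 536 in the same order. RBM10 had 5176, 4611 and 5087, against 5218, 5615 and 3079, and AC005329.1 had 95, 98 and 112, against 74, 59 and 52. NDUFB9 shares 16.5% with MTSS1, which had 149, 161 and 168 counts in the GPT1 libraries and 220, 214 and 171 in the control libraries. NDUFA2 shares 8.3% with TMCO6 (680, 659 and 485, against 760, 865 and 425 in the same order). NDUFA2 also shares 4.7% with IK (3593, 3548 and 4069, against 3451, 3499 and 2466). Without strand, reads from the shared bases of such pairs cannot be told apart, and their part in these results was not tested. NDUFB6 shares 1.0% with an opposite gene and NDUFA4 and NDUFAB1 share none, and all 3 passed. Of the 7 genes that passed in every fit run, all but NDUFB6 and NDUFA4 are among those named above with larger shares. Pseudogenes took few reads: of 63 NDUF pseudogenes 19 had a count, and together they took at most 0.174% of NDUF counts in a library. NDUFV2P1 had 36, 35 and 43 counts in the GPT1 libraries and 25, 44 and 27 in the control libraries, more than NDUFV2 itself.

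The 7 core subunits encoded in mitochondrial DNA, among them the proton-pumping subunits, gave calls that depended on the fit. With edgeR 0 of the 7 were higher and 0 lower (1 had an unadjusted p under 0.05), and their median was -0.26. limma voom also called 0, and DESeq2 called 1, MT-ND3, as higher. The length and GC correction called 1, MT-ND4L, as lower (-0.42, edgeR adjusted p = 0.0446), and 1, MT-ND3, was higher without control replicate 2. MT-ND3 had 678, 729 and 551 CPM in the GPT1 libraries, against 524, 569 and 423 CPM in the control libraries; the groups overlapped and its log2 fold change was 0.37 ± 0.13 (edgeR adjusted p = 0.0551). MT-ND4 had 1975, 2657 and 1231 CPM in the GPT1 libraries, against 2154, 2856 and 2993 CPM in the control libraries, an estimate of -0.45 ± 0.22 (edgeR adjusted p = 0.159). GPT1 replicate 3 was the lowest GPT1 library for both, and without it the median of the 7 was 0.00; without GPT1 replicate 2 it was -0.50 and 2, MT-ND4 and MT-ND6, were lower.

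Assembly factors of complex I with other symbols were mixed: 3 of 12 were higher and 1 lower, with a median of 0.17. Among all tested genes 10.5% were higher, 14.6% lower and 25.1% called in either direction. The higher ones were DMAC1, needed for the distal membrane arm (0.47 ± 0.11, edgeR adjusted p = 0.0162), TMEM126A (0.41 ± 0.12, edgeR adjusted p = 0.0292) and TIMMDC1, a membrane-arm assembly protein (0.25 ± 0.08, edgeR adjusted p = 0.0407). The lower was COA1, a partner of NDUFAF1 in membrane-arm assembly, at 65.6, 66.8 and 62.0 CPM in the GPT1 libraries, against 76.7, 81.9 and 84.7 CPM in the control libraries (-0.32 ± 0.09, edgeR adjusted p = 0.0224). None of these 4 passed without GPT1 replicate 1 or without GPT1 replicate 3. TIMMDC1 and TMEM126A also did not pass without control replicate 1 or without control replicate 2. In complex II, the other entry of electrons to ubiquinone, SDHC and SDHD were higher (0.36 and 0.40, edgeR adjusted p = 0.0185 and 0.0298), SDHB did not pass (0.15), and SDHA was between 2.51 and 3.51 CPM in all libraries. SDHC and SDHD did not pass without GPT1 replicate 1, GPT1 replicate 3 or control replicate 1.

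Of 7 regulators of respiratory genes, 1 was higher and 1 lower, a share near the 25.1% of all tested genes called in either direction. ESRRA, a nuclear receptor that controls respiratory genes, had 106, 90.2 and 101 CPM in the GPT1 libraries, against 81.9, 85.9 and 67.4 CPM in the control libraries (0.33 ± 0.11, edgeR adjusted p = 0.0443). GABPA, the ETS-family subunit of the GABP factor, had 19.2, 28.3 and 26.1 CPM in the GPT1 libraries, against 31.8, 33.3 and 54.5 CPM in the control libraries. Its groups did not overlap, control replicate 3 being the highest, and the estimate of -0.70 ± 0.21 (edgeR adjusted p = 0.0334) became -0.28 with the length and GC correction (edgeR adjusted p = 0.0481). Neither call held without GPT1 replicate 1 or without GPT1 replicate 3, and that of ESRRA also failed without control replicate 1 or control replicate 3. NRF1 itself had 27.7, 26.0 and 28.4 CPM in the GPT1 libraries, against 28.7, 28.8 and 25.9 CPM in the control libraries, an estimate of -0.02 ± 0.11. The groups overlapped, as they did for PPARGC1B, PPRC1 and TFAM, and PPARGC1A, a coactivator of mitochondrial genes, was at 0.951 to 1.47 CPM in the GPT1 libraries and at 1.34 to 2.13 CPM in the control libraries.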

How the data were processed

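Bulk mRNA libraries of 6 HCT8 samples, 3 per group, were used. Raw read counts per gene were deposited by the authors; reads had been aligned with HISAT2 2.0 to GRCh38, per the submitters' processing notes. Which tool counted the reads, over which annotation and with which strand option, is not stated there or in the labels. Symbols came from a table of gene identifiers that matched 60463 of 60664 genes; biotypes, positions, lengths and GC content came from GENCODE 29. Replicate libraries differed beyond sampling noise (chi-square per degree of freedom 10.8 to 33.7) and were kept as separate samples.

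Genes were kept by filterByExpr in edgeR 4.0.16 (R 4.3.3; 17638 genes), scaled with TMM and compared with the two-sided quasi-likelihood F test, Benjamini-Hochberg adjustment and a threshold of 0.05. CPM use TMM-scaled library sizes, and standard errors were the absolute log2 fold change over the square root of F (common BCV 0.119). The length and GC correction used smooths from mgcv 1.9.3 as offsets for the 17436 genes (98.85%) with both values. Deviations by library are log2 CPM with a prior count of 2. Alternatives were other scalings, filters of low counts, DESeq2 1.42.0, limma 3.58.1 voom, a replicate block, offsets and leaving out each library. The fits were tested on simulated data. Promoters were searched for exact matches in RefSeq windows.

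Values in every library are given for the core subunits (1 of them is not reported here and is left out of the plot by gene, but stays in the counts), the 8 other subunits with the largest log2 fold change past the threshold (none was lower), all NDUFAF genes, NDUFA4, NDUFA4L2 and NDUFC2-KCTD14; NDUFAB1, NDUFA10, NDUFA5 and the pseudogene and neighbour examples were chosen after their values were seen. The members and lists were chosen with earlier results of these data known.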

Additional observations from a re-analysis of the deposited data

How the results depend on the processing

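The count of all genes past the threshold, 4430, was 1443 to 4907 when each library was left out in turn. That of higher NDUF genes, 21, was 7 to 22 in these fits. With a GC correction alone it was 32, and 3285 of the 17638 tested genes were then higher, against 1858 without a correction. No NDUF gene was lower in any fit run. The assembly factor median, 0.09, was 0.082 to 0.151 with a library left out, 0.27 with the length and GC correction, 0.14 with length alone and 0.33 with GC content alone. The difference of medians, -0.20, was -0.24 to -0.12 with a library left out, -0.006 with both, -0.119 with length and -0.019 with GC content. The Spearman correlation of NDUF fold changes with length, -0.20, was -0.26 over genes of at least 1 CPM in 3 libraries, 0.32 with both corrections, 0.21 with length and 0.007 with GC content; with a library left out it was -0.22 to -0.16. That with GC content, -0.03, was -0.49, -0.21 and -0.45 under the same 3 corrections, and -0.17 to 0.05 with a library left out. Principal transcripts in place of the longest were also used for both corrections, an alternative chosen after seeing the data. This gave 0.31 for the assembly factor median and 0.055 for the difference. The correlations of these corrected fold changes, still taken against the longest transcripts, were 0.21 and -0.46. Without a correction, the correlations against length and GC content of principal transcripts were -0.12 and -0.03. NDUFS1 turned to 0.27 with both corrections and to 0.28 when these used principal transcripts. The cause of these shifts was not tested beyond the construction of each alternative.

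No label says whether replicate numbers pair the libraries. Same-numbered deviations from the group means correlated at 0.14, -0.28 and -0.08, and GPT1 replicate 2 correlated best with control replicate 3. With deviations centred in groups of 3, these values cannot show whether a pairing exists. With the replicate block 3886 of the 17638 tested genes passed, and 1416 were higher. In that fit 17 NDUF genes were higher, 15 of them among the 21, and 1 of the 7 mitochondrially encoded subunits, MT-ND3, was higher. With block and both corrections the assembly factor median was 0.26, the difference -0.009, the correlations 0.30 and -0.48, and NDUFS1 0.28. Other scalings, DESeq2 and limma voom changed at most 2 NDUF calls each. Groups of 3 and the small control replicate 3 limit precision for the genes of few counts.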
